A study of Mus musculus with 2 samples.

Results

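The small leucine-rich proteoglycans examined here were the 10 genes Dcn, Bgn, Aspn, Lum, Fmod, Kera, Prelp, Omd, Ogn and Podn, chosen by their gene symbols in the list of 32285 genes that both libraries shared. The rule used no measured value, but the members were chosen with earlier results of these data known. Live mononuclear cells had been sorted out of limb muscle of mice, and 1 droplet library came from mice treated with DMSO, the solvent, and 1 from mice treated with Maraviroc (MVC), a small-molecule drug. The study's methods describe Maraviroc as injected intraperitoneally into aged C57BL/6 mice. Red cells were lysed and dead cells were gated out before loading, and the number of mice behind each library was not given in the sources used here. Muscle fibres are too large for such a sort, and only 15 DMSO and 26 MVC cells carried fibre markers, so the levels below describe the cells between and around the fibres.

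These proteoglycans are secreted proteins built from leucine-rich repeats, and most carry chondroitin, dermatan or keratan sulfate chains. They bind fibrillar collagen and set how collagen fibrils assemble and how thick they grow, and several also bind growth factors such as TGF-β. In muscle and tendon they are made mainly by connective tissue cells, and mice that lack decorin, lumican or fibromodulin have collagen fibrils of abnormal shape.

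After cells with fewer than 500 genes or more than 10% mitochondrial counts were left out, 5437 cells remained in the DMSO library and 5454 in the MVC library. The libraries shared 9 cell barcodes. Clusters were formed without the proteoglycan genes and were named as classes from marker genes, with the ending "-like" because the names were rebuilt here. The classes that matter below were fibro-adipogenic progenitors (FAP-like, 1167 DMSO and 1422 MVC cells), tendon cells (tenocyte-like, 471 and 532), the sheath cells of nerve (perineurial-like, 79 and 69), pericytes of capillaries (297 and 286), smooth muscle cells (SMC-like, 179 and 127) and endothelial cells (EC-like, 2294 and 2116). A level is the total number of unique molecular identifiers (UMIs) of a gene in one class of one library, divided by all UMIs there and multiplied by 1000000 (counts per 1000000, or CPM). With 1 library in each group there was no test, and the 95% intervals of levels, shares and ratios cover counting error only. Levels of different genes were not compared with each other, because droplet counts are not scaled to transcript length.

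The members lay in few places in the genome (GRCm38, GENCODE M21). On chromosome 10, Dcn, Lum, Kera and the relative Epyc followed each other between 97479609 and 97682454, a span of 202.846 kb with no other protein-coding gene inside it. On chromosome 13, the relative Ecm2 and the members Aspn, Omd and Ogn lay between 49504810 and 49624501, a span of 119.692 kb. This whole run sat inside the gene Cenpp (49464023 to 49652785) on the opposite strand, and exons of Aspn overlapped exons of Cenpp. Prelp and Fmod lay beside the relative Optc on chromosome 1, in a span of 151.079 kb, and exons of Prelp overlapped those of the antisense gene Gm15851. Bgn was on chromosome X and Podn on chromosome 4. Whether the counting used strand was not given in the sources used here, so reads of Aspn and Prelp in shared exons are uncertain.

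The promoters of the chromosome 13 neighbours are shown because the neighbouring genes Aspn and Omd had ratios between the libraries on opposite sides of 1, as described below. Each is the 250 bases before the start in RefSeq (GRCm38.p6, plus strand), from chr13:49544193-49544442 for Aspn, chr13:49582212-49582461 for Omd and chr13:49607765-49608014 for Ogn. Capitals mark TATAAA on either strand, and overlapping matches are joined.

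Aspn: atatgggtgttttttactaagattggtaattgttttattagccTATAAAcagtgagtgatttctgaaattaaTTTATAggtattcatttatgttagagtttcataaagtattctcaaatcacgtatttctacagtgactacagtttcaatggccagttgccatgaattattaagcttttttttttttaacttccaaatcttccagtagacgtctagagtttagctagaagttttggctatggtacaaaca

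Omd: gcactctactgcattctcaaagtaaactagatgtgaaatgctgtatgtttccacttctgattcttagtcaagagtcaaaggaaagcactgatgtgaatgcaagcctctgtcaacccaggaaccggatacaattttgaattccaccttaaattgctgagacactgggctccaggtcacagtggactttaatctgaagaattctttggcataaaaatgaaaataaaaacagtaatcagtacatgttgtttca

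Ogn: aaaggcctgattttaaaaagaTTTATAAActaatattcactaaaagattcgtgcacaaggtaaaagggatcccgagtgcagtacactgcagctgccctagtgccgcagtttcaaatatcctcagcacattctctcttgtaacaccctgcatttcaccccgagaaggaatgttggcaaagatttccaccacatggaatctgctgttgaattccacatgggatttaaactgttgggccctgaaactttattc

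The Aspn promoter held TATAAA at 2 places, with first bases 207 and 178 bases before the start. The Ogn promoter held 2 overlapping matches, 229 and 227 bases before the start, and the Omd promoter held none. The base composition also differed, with a GC content of 30% for Aspn, 38.4% for Omd and 42.0% for Ogn. Of 32851 mouse promoter windows of this length, 12.4% held TATAAA, and 2 of the 8 members with a RefSeq promoter did, Aspn and Ogn. None of the 8 members with a RefSeq promoter held TGACTCA, the sequence bound by AP-1 factors, which 4.46% of all windows held. Dcn and Lum had no entry.

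Each member had its own distribution over the cell classes, and 9 of the 10 were highest in FAP-like, tenocyte-like or perineurial-like cells in both libraries. The exception was Aspn, which was highest in pericyte-like cells of the DMSO library. The plot of levels by class shows the fibroblast lineages on the left and lower levels in the other classes.

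**Figure D1:**
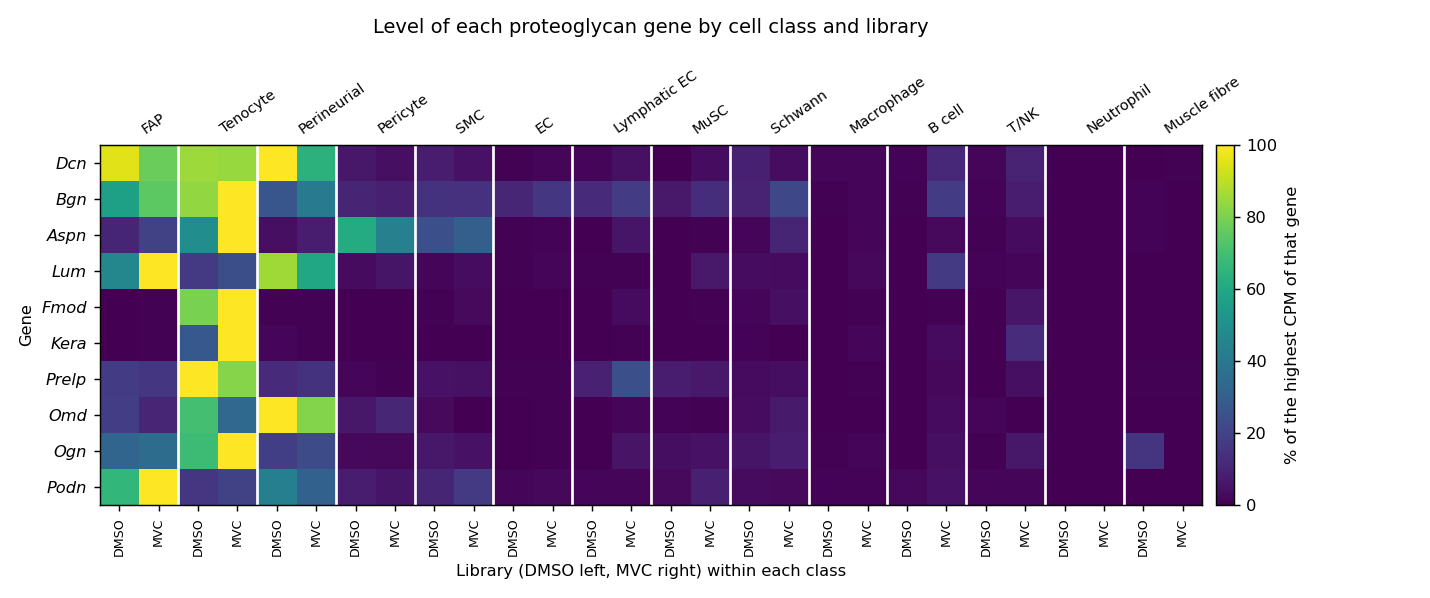
Level of each gene by cell class and library, as a percentage of the highest CPM of that gene; each class has a DMSO column and an MVC column, and brighter cells are higher. Fmod and Kera are bright in tenocyte-like cells alone, Lum and Podn are brightest in FAP-like cells of the MVC library, and Aspn is also bright in pericyte-like cells.

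Decorin (Dcn) regulates collagen fibril growth and binds TGF-β. Its level in FAP-like cells was 14745 CPM (95% interval 14678 to 14812) in the DMSO library and 11939 CPM (11881 to 11997) in the MVC library, and in tenocyte-like cells it was 13207 and 13063 CPM. Perineurial-like cells had 15453 and 9902 CPM, so the order was perineurial, FAP, tenocyte in the DMSO and tenocyte, FAP, perineurial in the MVC library. FAP-like cells held 71.8% of all Dcn UMIs in the DMSO library and 70.1% in the MVC library. Within each library the intervals of these 3 classes did not overlap. All other classes were lower, the highest of them Schwann-like cells with 1346 CPM in the DMSO and B cell-like cells with 1775 CPM in the MVC library.

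Biglycan (Bgn) is the closest relative of decorin and a ligand of Toll-like receptors when released from the matrix. Its level was 579 CPM in DMSO and 692 CPM in MVC tenocyte-like cells, and 394 and 518 CPM in FAP-like cells. In EC-like cells the level was 73.2 and 108 CPM over the whole class, but this hid a split between clusters. The cluster led by Cytl1, Igf2 and Gja5, the last a gene of arterial endothelium, had 212 CPM (191 to 234) and 205 CPM (184 to 228). The cluster led by Selp, Sele and Ackr1, genes of venules, had 173 CPM (156 to 192) in DMSO and 317 CPM (290 to 345) in MVC cells. In 4 other EC-like clusters Bgn had between 2.35 and 10.7 CPM in either library, and in the smallest it had 0 and 1 UMI.

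Asporin (Aspn) lacks the sulfated chain of its relatives and carries a stretch of aspartate residues. Pericyte-like cells held 20.01% of its UMIs in the DMSO and 6.42% in the MVC library, against at most 3.52% for any of the other 9 members. Pericyte-like cells had 794 CPM in the DMSO and 564 CPM in the MVC library, and tenocyte-like cells 633 and 1293 CPM. The SMC-like class was made of 2 clusters that differed in this gene. The cluster led by Acta2 and Myh11, the contractile genes of smooth muscle, had 590 and 615 CPM, while the cluster with Ccl19 and Lgr5 among its leading genes, which had no smooth muscle marker among its 10 leading genes, had 112 and 165 CPM. EC-like cells had 7.18 and 10.98 CPM, and B cell-like cells 1.69 and 33.7 CPM.

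Lumican (Lum) carries keratan sulfate and spaces collagen fibrils. Its level in FAP-like cells was 302 CPM (293 to 312) in DMSO and 653 CPM (639 to 666) in MVC, and in tenocyte-like cells 112 and 156 CPM. Perineurial-like cells had 561 and 390 CPM from 397 and 193 UMIs, and in the MVC library 3 cells held 70.0% of them. FAP-like cells held 79.5% of all Lum UMIs in the DMSO library and 88.0% in the MVC library.

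Fibromodulin (Fmod) and keratocan (Kera) were tendon genes in these data. Fibromodulin, a collagen binding protein of tendon and cartilage, had 4292 CPM in DMSO and 5364 CPM in MVC tenocyte-like cells, against 11.5 and 37.2 CPM in FAP-like cells. Tenocyte-like cells held 98.4% and 94.6% of its UMIs. Keratocan, best known from the cornea, had 99.1 and 358 CPM in tenocyte-like cells, which held 97.2% and 95.7% of its UMIs. In FAP-like cells it had 4 UMIs in the DMSO and 21 in the MVC library, and pericyte-like, SMC-like and MuSC-like (muscle stem) cells had 0 in both. In pericyte-like cells a count of 0 allows up to 1.92 CPM in the DMSO and 2.51 CPM in the MVC library, taking 3 counts as the limit.

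Prolargin (Prelp), a heparin binding member that anchors basement membranes to connective tissue, was also highest in tenocyte-like cells, at 1365 CPM in DMSO and 1116 CPM in MVC. FAP-like cells had 236 and 217 CPM. It was also found outside the fibroblast lineages. Lymphatic EC-like cells had 126 and 331 CPM, with a Prelp UMI in 57.3% of 75 and 68.4% of 79 cells, and MuSC-like cells had 105 and 95.5 CPM, with a UMI in 43.4% and 32.7% of cells. In B cell-like cells, taken as a class that should not make it, 1.46% and 4.72% of cells had a Prelp UMI at median depths of 5071 and 5334 UMIs, against 7418 and 5104 UMIs in lymphatic EC-like and 6751 and 6430 UMIs in MuSC-like cells.

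Osteomodulin (Omd), known from bone, was sparse and was highest in nerve sheath and tendon cells. It had 102 CPM (79.5 to 128) in DMSO and 82.9 CPM (59.5 to 112) in MVC perineurial-like cells, 71.4 and 34.8 CPM in tenocyte-like cells and 18.4 and 11.04 CPM in FAP-like cells. In the DMSO library the intervals of perineurial-like and tenocyte-like cells (63.59 to 79.95) overlapped, and in the MVC library they did not. EC-like cells had 2 and 4 Omd UMIs.

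Osteoglycin (Ogn), also called mimecan, was broad like decorin. It had 1731 CPM in DMSO and 2524 CPM in MVC tenocyte-like cells, 823 and 890 CPM in FAP-like cells and 472 and 582 CPM in perineurial-like cells. MuSC-like cells had 98.3 and 122 CPM, with an Ogn UMI in 34.3% and 37.0% of cells against 2.43% and 8.49% of B cell-like cells.

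Podocan (Podn), a member with many repeats that restrains smooth muscle cell growth, had a larger share of its UMIs in FAP-like cells than any other member, 84.9% in the DMSO and 89.0% in the MVC library. The level there was 77.9 and 118 CPM, and perineurial-like cells had 50.8 and 36.4 CPM. Tenocyte-like cells had 18.5 and 23.2 CPM.

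The number of members seen in one cell followed the same order. After every cell was thinned to 2000 UMIs, the median tenocyte-like cell had a UMI of 5 members in both libraries, the median FAP-like and perineurial-like cell of 3, and the median pericyte-like and SMC-like cell of 1. At that depth 98.2% of DMSO and 97.3% of MVC tenocyte-like cells had 3 or more members, against 63.8% and 76.7% of FAP-like cells and 0.253% and 0.536% of EC-like cells. Thinning left out 45 DMSO and 119 MVC FAP-like cells and 15 and 45 tenocyte-like cells that were shallower.

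Within the FAP-like class the 3 clusters had different levels of the members. The cluster led by Cxcl14 and Smoc2 (424 DMSO and 693 MVC cells) and the cluster led by the interferon and inflammation genes Ifi205, Ptx3 and Ccl7 (437 and 384 cells) had overlapping Lum levels in the DMSO library, at 408 CPM (388 to 429) and 411 CPM (392 to 430). The cluster led by Pi16, Sema3c and Cd55 (306 and 345 cells) had 90.9 CPM (82.1 to 100). Bgn was also lowest in the Pi16 cluster, at 401, 672 and 93 CPM in that order in DMSO cells, and so was Podn, at 110, 101 and 24.1 CPM. Omd was highest in the Pi16 cluster, at 16.7, 10.8 and 28.1 CPM, and so was Aspn, at 92.2, 137 and 162 CPM. Dcn was graded less steeply, at 18692, 15023 and 10895 CPM.

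The 2 tenocyte-like clusters also split the members. The cluster led by Angptl7 and Wif1 (217 and 242 cells) had more Dcn (19041 CPM in DMSO against 8309), Fmod (5923 against 2922), Prelp (1648 against 1127), Omd (93.8 against 52.7) and Lum (149 against 80.9) than the cluster led by Col22a1 and Thbs4 (254 and 290 cells). The latter cluster carries genes of the junction between muscle and tendon. Aspn was reversed, at 342 CPM in the Angptl7 and 878 CPM in the Col22a1 cluster, while Bgn was level at 582 and 577 CPM, with overlapping intervals. In the MVC library each of these 6 differences had the same direction, and Bgn was lower in the Angptl7 cluster, at 633 against 746 CPM. The plot of levels by cluster shows the values of both libraries.

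**Figure D2:**
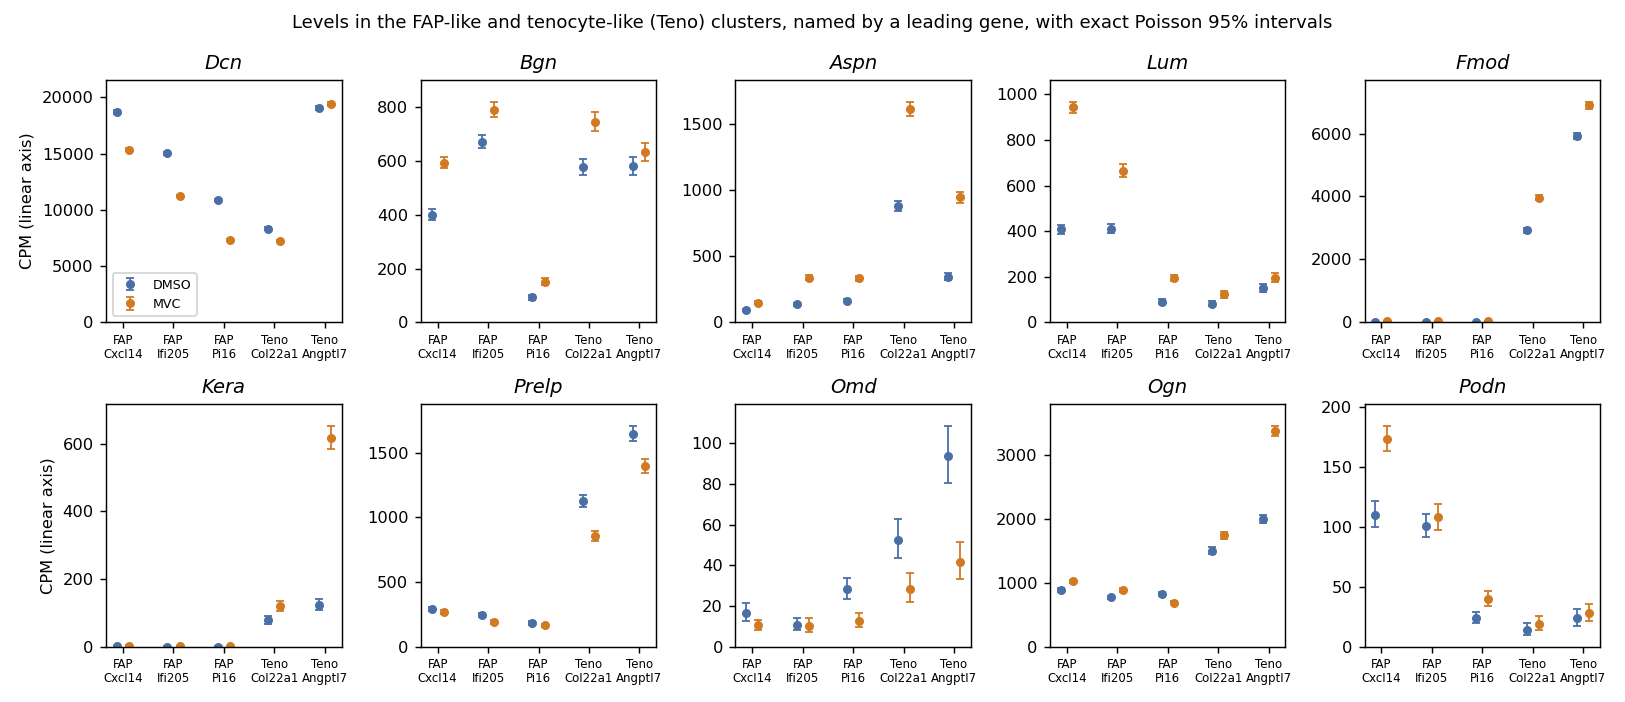
Level (CPM, linear axis from 0) of each member in the 3 FAP-like and 2 tenocyte-like clusters, each named by a leading gene, with DMSO in blue and MVC in orange; bars are exact Poisson 95% intervals, which cover counting error only. Kera in the Angptl7 cluster is at 123 CPM in DMSO and 617 CPM in MVC, Omd is lower in MVC in both tenocyte-like clusters, and Lum is higher in MVC in all 5 clusters.

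The design compares the MVC with the DMSO library, and this comparison was made class by class. A gene was counted as past the threshold when its CPM ratio, MVC over DMSO, was at least 1.5 or at most its inverse, among genes with at least 50 UMIs in the class. In FAP-like cells 9 members had enough UMIs. Aspn, Lum, Fmod and Podn were past the threshold on the higher side, where 11.8% of 12689 genes were, and Omd was past it on the lower side, where 3.05% of genes were. Dcn, Bgn, Prelp and Ogn were within 1.5-fold, and Kera had too few UMIs. The median log2 ratio of those 12689 genes was itself 0.14 in FAP-like cells, so scaling the libraries by that median lowers every log2 ratio of this class by 0.14.

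For Lum the difference was present in every FAP-like cluster and in many cells. The ratio of the levels given above was 2.16 (95% interval 2.08 to 2.25), and in the Cxcl14, Ifi205 and Pi16 clusters it was 2.31, 1.62 and 2.14. The 3 cells with most Lum held 4.24% of its UMIs in the DMSO and 2.56% in the MVC library. After thinning, 32.0% of 1122 DMSO cells (29.3 to 34.8) and 55.6% of 1303 MVC cells (52.9 to 58.4) had a Lum UMI. Under 13 alternative settings the log2 ratio stayed between 0.98 and 1.17. Of the 12 FAP markers, 2 (Smoc2 and Gdf10) were past 1.5-fold on the higher side and none on the lower side. Over all genes 11.8% were on the higher and 3.05% on the lower side. Smoc2 had 767 CPM in DMSO and 1387 CPM in MVC, while Pdgfra, the receptor that defines these progenitors, had 378 and 379 CPM. The summed level of the 12 markers was 5793 CPM in DMSO and 6885 CPM in MVC. Their part in the Lum value was not tested.

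Aspn in FAP-like cells had 132 CPM in the DMSO and 251 CPM in the MVC library, a ratio of 1.90 (1.80 to 2.02). The 3 clusters had ratios of 1.60, 2.45 and 2.05 in the order above, and the log2 ratio stayed between 0.77 and 1.05 under 13 alternatives. Several markers of mural cells, where Aspn was also found, were higher in the same FAP-like cells. Pdgfrb (89.9 CPM in DMSO and 86.2 CPM in MVC) and Tagln (6.08 and 5.82 CPM) were not. Of 7 tested pericyte markers 3 were past 1.5-fold on the higher side, Abcc9, Cspg4 and Ndufa4l2, where 11.8% of all genes were. The list of 9 summed to 368 CPM in DMSO and 468 CPM in MVC. Of 6 tested SMC markers 3 were past it on the higher side, Myh11, Acta2 and Mylk, and the list of 9 summed to 39.7 and 64.3 CPM. Abcc9 and Myh11 had 26 and 20 DMSO UMIs, so under the UMI minimum they could not have been called on the lower side. Of 10 EC markers 3 were also past 1.5-fold on the higher side, and they summed as a list to 355 and 364 CPM. The part of mural and other cells in the Aspn value was not tested. Podn had 77.9 and 118 CPM, a ratio of 1.51 (1.39 to 1.64) that sat at the threshold. Its ratio was 1.57 in the Cxcl14, 1.07 (0.935 to 1.23) in the Ifi205 and 1.65 in the Pi16 cluster, and it stayed past the threshold under 10 of 13 alternatives. The Cxcl14 cluster, where Podn was highest in both libraries, held 424 of 1167 DMSO and 693 of 1422 MVC cells of the class. With the clusters weighted alike in both libraries, Aspn, Lum and Omd stayed past the threshold.

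Omd in FAP-like cells had 18.4 CPM from 233 UMIs in the DMSO and 11.04 CPM from 150 UMIs in the MVC library, a ratio of 0.600 (0.485 to 0.740). The Pi16 cluster had 28.1 and 12.7 CPM, a ratio of 0.452 (0.318 to 0.633), while the Ifi205 cluster had 10.8 and 10.3 CPM, a ratio of 0.956 (0.606 to 1.495). After thinning, 2.85% (1.96 to 4.003) and 2.15% (1.43 to 3.09) of FAP-like cells had an Omd UMI, intervals that overlap, against 0.0507% of DMSO and 0% (0 to 0.247) of MVC EC-like cells.

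Fmod in FAP-like cells rested on few cells. Its 146 DMSO and 505 MVC UMIs gave 11.5 and 37.2 CPM, a ratio of 3.22 (2.68 to 3.90), but 3 cells held 72.6% of them in the DMSO and 45.9% in the MVC library. A Fmod UMI was found in 2.83% and 4.43% of FAP-like cells. EC-like cells, which should lack it, had 2.59 CPM in DMSO and 13.8 CPM in MVC, and 1.003% and 2.69% of them had a UMI, at median depths of 3700 and 3234 UMIs against 10387 and 9232 UMIs in FAP-like cells. The tenocyte marker Tnmd had 18 and 77 UMIs in FAP-like cells, although the 11 tenocyte markers summed to 332 CPM in DMSO and 248 CPM in MVC. With cells put into classes by their own markers, the log2 ratio was 0.30 in place of 1.69, under the threshold.

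Dcn, the most counted member, was lower in the MVC library in all 3 FAP-like clusters, with ratios of 0.821, 0.748 and 0.673, and 0.810 (0.804 to 0.815) over the class. Dcn made up most of the UMIs of the 10 members, and the log2 ratio of their sum was -0.19 with Dcn and 0.43 without it. Bgn had a ratio of 1.31 (1.27 to 1.36), Ogn of 1.08 (1.05 to 1.11) and Prelp of 0.918 (0.872 to 0.966), all within 1.5-fold.

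In tenocyte-like cells all 10 members had enough UMIs. Aspn and Kera were past 1.5-fold on the higher side, where 9.02% of 9676 genes were, and Omd on the lower side, where 5.51% of genes were. The other 7 were within 1.5-fold. On the log2(CPM + 10) scale the median of the 10 members was 0.29, against 0.03 over all genes. The 3 members past the threshold stayed there under all 13 alternatives, with log2 ratios between 0.99 and 1.05 for Aspn, 1.75 and 1.88 for Kera and -1.13 and -1.01 for Omd.

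Aspn had 633 CPM (610 to 658) in the DMSO and 1293 CPM (1259 to 1327) in the MVC library, a ratio of 2.04 (1.95 to 2.14). The Angptl7 cluster had 342 and 944 CPM and the Col22a1 cluster 878 and 1613 CPM. The ratio in the former was 2.76 (2.52 to 3.02) and in the latter 1.84 (1.74 to 1.94). After thinning, 46.7% (42.1 to 51.4) of DMSO and 63.5% (59.0 to 67.7) of MVC tenocyte-like cells had an Aspn UMI.

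Kera had the largest ratio of any member in this class, 3.61 (3.24 to 4.03), from 419 UMIs in DMSO and 1562 in MVC. The difference was larger in one of the 2 clusters. The Angptl7 cluster had 123 CPM (108 to 140) in DMSO and 617 CPM (584 to 652) in MVC, a ratio of 5.02 (4.37 to 5.79), while the Col22a1 cluster had 79.2 and 120 CPM, a ratio of 1.52 (1.26 to 1.84). The share of Angptl7 cluster cells with a Kera UMI was 27.2% and 52.9%, and that of Col22a1 cluster cells was 20.5% and 16.6%. The 3 cells with most Kera held 13.6% and 12.4% of the class total. Other tendon genes also differed. The tenocyte marker Tnmd had 259 CPM in DMSO and 677 CPM in MVC, and the transcription factor Scx had 60.1 and 114 CPM, whereas Angptl7 had 2630 and 1328 CPM and Thbs4 8953 and 8303 CPM. Of the 11 tenocyte markers, 4 were past 1.5-fold on the higher side and 1 on the lower side, and their summed level was 13058 CPM in DMSO and 11732 CPM in MVC. Over all genes of this class 9.02% were on the higher and 5.51% on the lower side. Marker lists of other cells also moved within tenocyte-like cells. The 9 SMC markers summed to 408 CPM in DMSO and 555 CPM in MVC, with 3 of 4 tested past 1.5-fold on the higher side, among them Tagln at 16.6 and 91.0 CPM. The 4 erythroid markers summed to 7.33 and 224 CPM, the 7 neutrophil markers to 41.1 and 7.56 CPM, and the 6 cartilage and bone markers to 82.3 and 33.0 CPM, with Col2a1 at 41.6 and 6.19 CPM. The part of these cells in the values of the members was not tested. Differences between mice, between dissections and between treatments cannot be told apart with 1 library each.

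Omd in tenocyte-like cells had 302 UMIs and 71.4 CPM (63.59 to 79.95) in the DMSO library against 152 UMIs and 34.8 CPM (29.5 to 40.8) in the MVC library. The ratio was 0.488 (0.399 to 0.595), and it was 0.444 in the Angptl7 and 0.543 in the Col22a1 cluster. After thinning, 11.2% (8.44 to 14.4) and 4.52% (2.85 to 6.76) of the cells had an Omd UMI. Omd and Aspn lie next to each other on chromosome 13, and their ratios were on opposite sides of 1 in all 5 FAP-like and tenocyte-like clusters, with the Omd interval spanning 1 in the Ifi205 cluster. Ogn, the third of the run, had a ratio of 1.46 (1.42 to 1.502) over the tenocyte-like class, with 1.69 in the Angptl7 and 1.16 in the Col22a1 cluster. The chromosome 10 neighbours also had unlike ratios in tenocyte-like cells, 0.989 (0.978 to 1.001) for Dcn, 1.40 (1.24 to 1.58) for Lum and 3.61 for Kera.

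Fmod had a ratio of 1.25 (1.23 to 1.27) in tenocyte-like cells, Bgn of 1.19 (1.13 to 1.26), Podn of 1.26 (0.925 to 1.71) and Prelp of 0.818 (0.787 to 0.850). The log2 ratio of the sum of all 10 members was 0.16, and without Dcn 0.38.

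**Figure D3:**
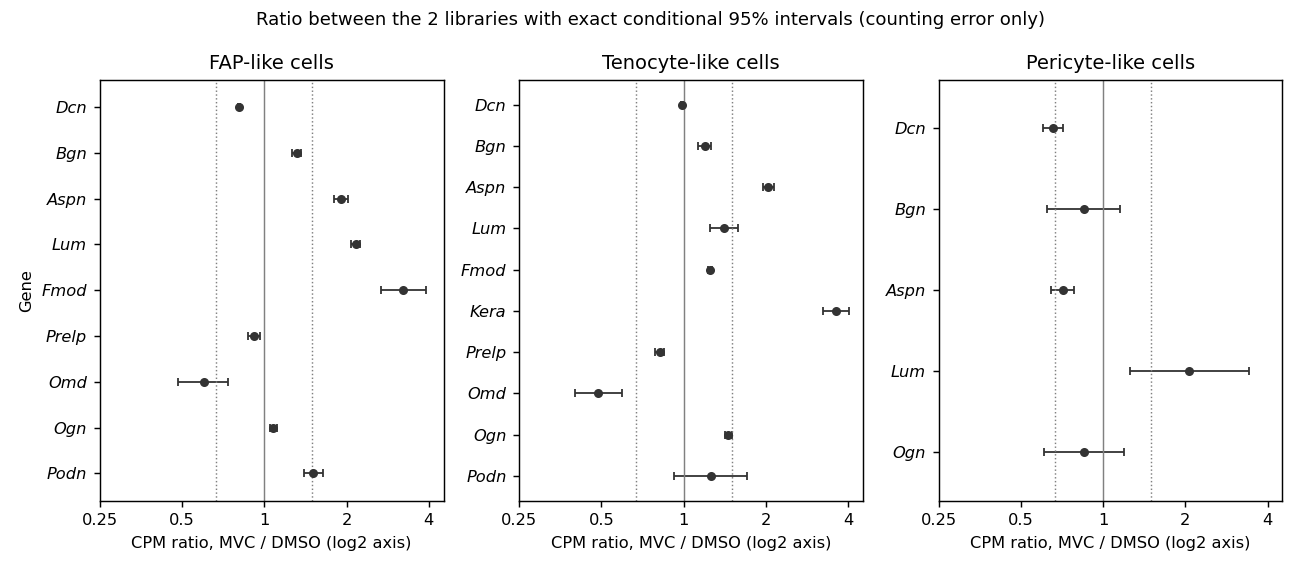
CPM ratio of each member, MVC over DMSO, in FAP-like, tenocyte-like and pericyte-like cells, on a log2 axis, for members with at least 50 UMIs in the class; bars are exact conditional 95% intervals covering counting error only, the solid line is a ratio of 1 and dotted lines are 1.5-fold in either direction. Lum, Aspn and Fmod lie to the right of 1.5-fold in FAP-like cells, Aspn and Kera in tenocyte-like cells, Podn sits on the dotted line, and Omd lies to the left in both classes.

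Aspn, the one member with its highest DMSO level in pericyte-like cells, was lower there in the MVC library. The 297 DMSO cells had 1240 UMIs and 794 CPM (750 to 840), and the 286 MVC cells had 674 UMIs and 564 CPM (523 to 609). The ratio was 0.711 (0.646 to 0.781), within 1.5-fold, and the log2 ratio stayed below 0 under 12 of 12 alternatives, between -0.76 and -0.28. After thinning, 73.3% (67.6 to 78.5) of 270 DMSO and 56.7% (49.3 to 63.9) of 187 MVC cells had an Aspn UMI, with 27 and 99 shallower cells left out. Of 5 members with enough UMIs, Lum was past 1.5-fold on the higher side, where 10.0% of 6972 genes were, and Dcn on the lower side, where 5.74% of genes were. Neither kept its sign under all alternatives. For Lum, 3 cells held 92.9% of 28 DMSO and 75.0% of 44 MVC UMIs. With 28 DMSO UMIs, Lum could not have been called on the lower side under the UMI minimum. For Dcn, 3 cells held 47.9% and 60.5%, and without cells called as doublets its level was 238 CPM in place of 998 in DMSO and 89.4 CPM in place of 656 in MVC cells. The doublet caller marked 13.1% and 10.5% of pericyte-like cells. The 9 pericyte markers summed to 14823 CPM in DMSO and 11372 CPM in MVC, and 1 of them was past 1.5-fold, on the lower side. The median pericyte-like cell had 4156 and 2938 UMIs.

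In SMC-like cells 6 members had enough UMIs. Fmod was past 1.5-fold on the higher side, where 11.7% of 6097 genes were, and Dcn on the lower side, where 7.41% of genes were. The Fmod difference lay in the Acta2 cluster, with 63.3 CPM (45.2 to 86.1) from 40 UMIs in DMSO and 246 CPM (204 to 293) from 125 UMIs in MVC, where 33.8% of 65 and 58.3% of 48 cells had a UMI. The Ccl19 cluster had 13 and 5 Fmod UMIs. Over the class 3 cells held 34.0% of the Fmod UMIs in DMSO and 60.8% in MVC, and without cells called as doublets the class had 34.7 and 65.6 CPM. Summed tenocyte markers in SMC-like cells were 68.3 CPM in DMSO and 200 CPM in MVC. Their part in the Fmod value was not tested. Dcn in this class kept neither its side nor its sign under every alternative.

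The plot of shares after thinning sets the differing members beside classes that should lack them.

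**Figure D4:**
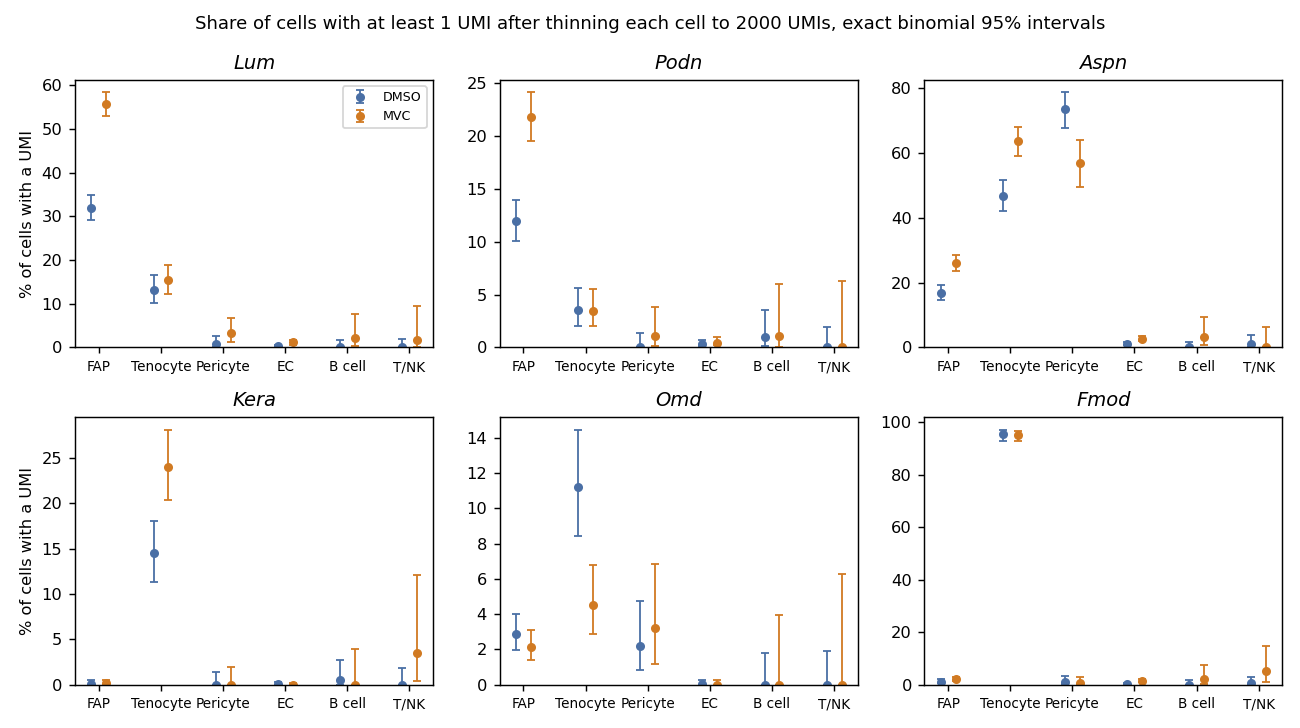
Percentage of cells with at least 1 UMI of 6 members after each cell was thinned to 2000 UMIs, by class, with DMSO in blue and MVC in orange; bars are exact binomial 95% intervals and shallower cells were left out. Lum and Podn in FAP-like cells and Aspn and Kera in tenocyte-like cells are higher in MVC, Omd in tenocyte-like and Aspn in pericyte-like cells are lower, and EC, B cell and T/NK classes lie at or below 5.26%.

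In EC-like, B cell-like, MuSC-like and macrophage-like cells every member past 1.5-fold was on the higher side. The UMI minimum counted both libraries together, so a tested member with few DMSO UMIs could be called on that side only. In B cell-like cells Bgn, Lum and Ogn had 6, 3 and 5 DMSO UMIs. In MuSC-like cells Lum and Fmod had 0, and in macrophage-like cells Aspn and Fmod had 4 and 7. Dcn in B cell-like cells (190) and Dcn, Aspn and Ogn in EC-like cells (1061, 75 and 71) reached the minimum in DMSO cells alone. Lum and Fmod in EC-like cells (38 and 27) and Ogn in macrophage-like cells (26) did not. Of these, Fmod and Ogn could not have been called on the lower side. In EC-like cells 5 of 7 members with enough UMIs (Dcn, Aspn, Lum, Fmod and Ogn) were past 1.5-fold on the higher side, where 10.1% of 11612 genes were. Dcn had 102 CPM in DMSO and 184 CPM in MVC EC-like cells, a ratio of 1.82 (1.68 to 1.97), and 3 cells held 42.0% and 38.1% of its UMIs. Without cells called as doublets it had 51.1 and 104 CPM.

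In B cell-like cells all 4 members with enough UMIs (Dcn, Bgn, Lum and Ogn) were past 1.5-fold on the higher side, where 12.4% of 5492 genes were. Dcn had 160 CPM in DMSO and 1775 CPM in MVC, but 3 cells held 83.2% and 79.6% of the UMIs, and without cells called as doublets the levels were 37.6 CPM (27.1 to 50.8) and 47.5 CPM (30.7 to 70.1). The other 3 members had between 105.6 and 123 CPM in MVC cells. Without doublets Bgn had 4.47 CPM in DMSO and 1.90 CPM in MVC, Ogn 3.58 and 1.90 CPM, and Lum 1 UMI and 0, so none of these 3 was higher in MVC. T/NK-like cells had 252 and 1465 CPM of Dcn, and 27.8 CPM (20.2 to 37.3) and 49.9 CPM (30.04 to 77.9) without doublets. In T/NK-like cells of the MVC library 99.4% of 172 Fmod UMIs lay in 3 cells.

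MuSC-like cells had 4 of 6 members past 1.5-fold on the higher side (Dcn, Bgn, Lum and Fmod), where 11.1% of 6242 genes were, and macrophage-like cells had 3 of 4 (Aspn, Fmod and Ogn), where 10.0% of 7447 genes were. Dcn in MuSC-like cells had 48.2 CPM in DMSO and 536 CPM in MVC, and 3 cells held 50.2% of the MVC UMIs. Without doublets it had 49.0 and 182 CPM, and with classes from each cell's own markers its log2 ratio was 0.11 in place of 3.48, under the threshold. Lum in MVC MuSC-like cells had 43.4 CPM from 80 UMIs, and 3.56 CPM from 6 UMIs without doublets, with 0 UMIs in DMSO cells either way. Fmod in MVC macrophage-like cells had 30.8 CPM, and 6.21 CPM without doublets against 4.27 CPM in DMSO cells. The tenocyte markers summed to 30.5 CPM in DMSO and 113 CPM in MVC MuSC-like cells, and to 24.6 and 54.5 CPM in EC-like cells. The part of free RNA and of cell pairs in these values was not tested.

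The 7 other genes of the family were counted between 24 and 7559 times over both libraries. Chad, chondroadherin, was a tenocyte gene, with 99.6% of its UMIs in tenocyte-like cells of the DMSO and 98.1% in those of the MVC library. Its level there was 449 and 708 CPM, a ratio of 1.58 (1.49 to 1.67). Optc, opticin, had 11.4 and 5.04 CPM in tenocyte-like cells, a ratio of 0.444 (0.255 to 0.750), and 4.98 and 2.87 CPM in FAP-like cells. Ecm2 was counted 3460 and 4099 times, and in neither of those classes was it past 1.5-fold. Epyc, Nyx and Podnl1 had between 12 and 35 UMIs in a whole library, and Tsku had 198 and 188.

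The collagens that these proteoglycans bind were mostly higher in the MVC library. Of 11 fibrillar collagens and their partners, 6 were past 1.5-fold on the higher side in FAP-like cells, where 11.8% of all genes were. In tenocyte-like cells 8 were, where 9.02% of all genes were. None was past it on the lower side in these 2 classes. On the log2(CPM + 10) scale the median of the list was 0.64 in FAP-like cells, against 0.08 over all genes, and 0.86 in tenocyte-like cells, against 0.03. Col3a1 had 585 CPM in DMSO and 1214 CPM in MVC FAP-like cells, and Col6a1 had 258 and 470 CPM. In tenocyte-like cells Col1a1 had 377 and 902 CPM, and Col1a2 had 707 and 1474 CPM. The rise was not limited to these classes. On the higher side were 6 of 8 tested in EC-like, 7 of 10 in MuSC-like, 5 of 5 in macrophage-like and 3 of 3 in B cell-like cells. Those in B cell-like cells (Col1a2, Col3a1 and Col6a3) had 7, 3 and 7 DMSO UMIs. Under the UMI minimum they could be called on the higher side only. In pericyte-like cells 3 of 9 were, and in SMC-like cells 1 of 10. Over all genes 10.0% to 12.4% were in these classes. EC-like cells had 1 of the list on the lower side.

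Of 22 genes for enzymes of the linker and of chondroitin and dermatan sulfate chains, 20 had enough UMIs in FAP-like cells and 4 were past 1.5-fold on the higher side, where 11.8% of all genes were. The median on the log2(CPM + 10) scale was 0.15, against 0.08 over all genes. Chsy1, a chondroitin polymerase, had 14.6 and 25.5 CPM there, and the other 3 (Xylt2, B4galt7 and Chst14) were under 10 CPM. In tenocyte-like cells, where the median was 0.06 against 0.03 and 9.02% of all genes were past 1.5-fold on the higher side, 14 had enough UMIs and 2 were past it, Chpf2 and Chst11, the latter a sulfotransferase with 95.3 and 154 CPM. Of 7 keratan sulfate enzymes, 4 had enough UMIs in FAP-like and 3 in tenocyte-like cells. Chst1 in FAP-like cells (12.3 and 8.17 CPM) was past 1.5-fold on the lower side, where 3.05% of all genes were. B4galt4 in tenocyte-like cells (3.55 and 8.02 CPM) was past it on the higher side, where 9.02% were. With so few DMSO UMIs, the minimum over both libraries let B4galt4 be called on the higher side only.

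Among 8 receptors known to bind members, Tlr4, a receptor of biglycan and decorin, had 61.7 CPM in DMSO and 34.4 CPM in MVC tenocyte-like cells, a ratio of 0.557 (0.453 to 0.684). Its co-receptor Cd14 had 12.3 and 1.15 CPM there, from 52 and 5 UMIs, but 2.69 and 4.56 CPM in FAP-like cells, past 1.5-fold on the higher side. The neutrophil markers S100a8 (49 and 7 UMIs) and S100a9 (91 and 13 UMIs) were also lower in MVC tenocyte-like cells. In MVC FAP-like cells, where Cd14 was higher, S100a8 (136 and 9 UMIs) and S100a9 (243 and 20 UMIs) were lower as well. The part of neutrophils in the Cd14 values was not tested. Kdr, which is also an EC marker, was past 1.5-fold on the higher side in tenocyte-like cells, at 7.10 and 13.1 CPM. So were 3 other EC markers of 8 tested (Emcn, Esam and Flt1), while the list of 10 summed to 371 CPM in DMSO and 355 CPM in MVC. Emcn and Esam had 19 and 27 DMSO UMIs, so under the UMI minimum they could not have been called on the lower side. The other receptors were within 1.5-fold in both classes. Over all genes 11.8% were past it on the higher side in FAP-like cells. In tenocyte-like cells 9.02% were on the higher and 5.51% on the lower side. Of 8 proteases that process members, 7 had enough UMIs in FAP-like cells. Adamts1 had 779 and 492 CPM and Adamts4 180 and 113 CPM there. Both were past 1.5-fold on the lower side, where 3.05% of all genes were. Mmp13 had 8.51 and 36.2 CPM in tenocyte-like cells.

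Of 15 other proteoglycan core genes, 12 had enough UMIs in FAP-like cells. There Sdc3, Gpc1 and Cspg4 were past 1.5-fold on the higher side, where 11.8% of all genes were. Prg4 and Spock2 were past it on the lower side, where 3.05% were. The median of the list, on the scale used for the lists above, was 0.19 against 0.08 over all genes. Prg4, lubricin of joint and tendon surfaces, had 1661 CPM in DMSO and 760 CPM in MVC FAP-like cells, and 3329 and 2765 CPM in tenocyte-like cells. In tenocyte-like cells 14 had enough UMIs, and the median was -0.13 against 0.03. Sdc2, Sdc3 and Gpc1 were past 1.5-fold there on the higher side, where 9.02% of all genes were. Acan and Srgn were past it on the lower side, where 5.51% were. Acan, the aggregating proteoglycan of cartilage, had 66 UMIs in DMSO and 4 in MVC tenocyte-like cells.

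Over 24 clusters and both libraries, 48 points in all, the genes whose log2(CPM + 10) followed a member most closely were as follows. These correlations describe the spread over clusters, and the points share libraries and cell lineages. Lum was followed by Smoc2 (r = 0.94), Pdgfra (0.90) and Cxcl14 (0.90). Fmod was followed by Tnmd (0.93), Chad (0.90) and Thbs4 (0.88), and Kera by Ecrg4 (0.93), Tnmd (0.91) and Chad (0.90). Aspn was followed by Bmp5 (0.86), Pdgfrb (0.86) and Tgfb3 (0.82), Pdgfrb being the receptor that marks mural cells. Dcn was followed by Gsn (0.94), C1ra (0.94) and Col1a2 (0.93), and Ogn by Il11ra1 (0.94), Serpinf1 (0.93) and Col1a2 (0.93). The genes nearest to Bgn were Mgp (0.85), Mxra8 (0.85) and Aebp1 (0.84), and those nearest to Prelp were Abi3bp (0.91), Ltbp3 (0.90) and Il11ra1 (0.89). Omd was followed by Vit (0.93), Nalcn (0.88) and Igfbp6 (0.86), and Podn by Srpx (0.94), Mme (0.91) and Ms4a4d (0.91).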

How the data were processed

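The 2 libraries, 1 from DMSO-treated and 1 from MVC-treated mice, were deposited by the authors as raw UMI counts per gene and cell, made with Cell Ranger 7.0.0 and mm10 per the submitters' processing notes, which also list Seurat 5.0.1. Whether intronic reads were counted was not given in the sources used here. The DMSO library held 5812 barcodes and 39150511 UMIs, and the MVC library 6047 barcodes and 36063575 UMIs. Following the study's methods, barcodes under 500 genes or above 10% mitochondrial UMIs were dropped. The median kept cell had 5802 UMIs in the DMSO and 5195 UMIs in the MVC library.

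Both libraries were clustered together, without integration, on 2000 variable genes (30 principal components, 20 neighbours, Leiden resolution 1, scanpy 1.11.5, leidenalg 0.10.2). Family, mitochondrial and Y-linked genes, Xist and Tsix were left out of the variable genes. The 26 clusters were named from marker lists. Within each library a doublet score was taken from simulated cell pairs, and the cells with the highest scores were marked. Their number was fixed in advance at a rate of 0.8% per 1000 cells, which gave 4.34% and 4.36% of cells. Marked cells were kept except where stated.

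UMIs were summed per class and library and scaled to 1000000. Intervals (95%) were exact Poisson for levels, Clopper-Pearson for shares and exact conditional for ratios, with scipy 1.17.1. They cover counting error only, and with 1 library a group no replicate spread could be had. Ratios were called past 1.5-fold among genes with at least 50 UMIs in classes of at least 100 cells in each library. For shares, cells were thinned to 2000 UMIs. All 10 members were named, and from the other lists genes with at least 50 UMIs. The genes most like a member were the 3 with the highest Pearson r among those with at least 1000 UMIs. Only the ratio and its interval were tested on simulated data, with independent Poisson counts, the spread that the interval itself assumes. Clustering, naming, doublet calling and thinning were not tested in this way. Gene positions are from GENCODE M21 and promoters from RefSeq (GRCm38.p6). The members and lists were chosen with earlier results of these data known. The alternatives were another cell filter, other clusterings or classes, scaling, averaging, other thresholds, removal of doublets or of the leading cells, and subtraction of the level in blood or endothelial cells.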

Additional observations from a re-analysis of the deposited data

Results flagged for a closer look

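For 3 members (Aspn, Dcn and Ogn) the MVC over DMSO ratio lay on opposite sides of 1 in different classes, with counting intervals that excluded 1 and at least 1 of the ratios past 1.5-fold. The classes compared were FAP-like, tenocyte-like, pericyte-like, SMC-like, EC-like and MuSC-like cells. For each, the pair of classes that lay farthest apart is given, and other pairs of these members also lay on opposite sides. Each class had 1 library per group, so the differences were not tested. For Aspn, the log2 ratio was 1.03 in tenocyte-like and -0.49 in pericyte-like cells, a difference of 1.52, and the 3 cells with most Aspn held at most 9.78% of the UMIs in either class and library.

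For Dcn, the ratio was 11.1 (8.34 to 15.1) in MuSC-like and 0.592 (0.542 to 0.645) in SMC-like cells, a log2 difference of 4.23. With classes from each cell's own markers the log2 ratio in MuSC-like cells was 0.11 in place of 3.48, and with clusters from genes centred within each library that in SMC-like cells was 0.69 in place of -0.76. In the MVC library 3 cells held 50.2% of the Dcn UMIs of MuSC-like and 70.8% of those of SMC-like cells. For Ogn, the ratio was 1.88 (1.38 to 2.58) in EC-like and 0.792 (0.634 to 0.986) in SMC-like cells, a log2 difference of 1.25, and 3 cells held 52.1% of the DMSO and 41.9% of the MVC Ogn UMIs of EC-like cells. Within SMC-like cells Ogn had 212 CPM in DMSO and 68.8 CPM in MVC cells of the Acta2 cluster, and 123 and 187 CPM in the Ccl19 cluster.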

How the results depend on the processing

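No paired analysis was possible because each group had 1 library. Over all alternatives run, the log2 ratios of single members moved by less than their counting interval in 401 cases, moved further in 91 and changed sign after a call in 4. The sign changes were Dcn in pericyte-like cells (-0.61), which became 0.23 with classes from each cell's own markers and 0.053 as a mean over cells, Dcn in SMC-like cells (-0.76), which became 0.69 with clusters from genes centred within each library, and Lum in pericyte-like cells (1.04), which became -0.39 without doublets. The cause was not tested.

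The log2 ratio of the summed members in FAP-like cells (-0.19) became -0.39 with the level of B cell-like and T/NK-like cells subtracted, -0.16 with own-marker classes, -0.22 as a mean over cells, -0.33 scaled by the median ratio and 0.43 without Dcn. In tenocyte-like cells (0.16) it became 0.037 with that subtraction, 0.094 as a mean over cells, 0.11 scaled by the median ratio, 0.17 at resolution 2, 0.17 with family genes among the variable genes, 0.19 under the stricter cell filter and 0.38 without Dcn. The blood-cell subtraction also turned the sum from 0.79 to -2.23 in EC-like and from 1.64 to -1.90 in MuSC-like cells. The level subtracted there included cells called as doublets. In the MVC library Dcn had 1775 CPM in B cell-like and 1465 CPM in T/NK-like cells, and 47.5 and 49.9 CPM without doublets. With the level without doublets subtracted, the log2 ratio of Dcn alone in MuSC-like cells was 4.90, against 3.48 in the main setting. Of alternatives chosen after seeing the data, subtracting the EC-like level gave -0.21 in FAP-like cells, and weighting clusters alike gave -0.27 in FAP-like and 0.13 in tenocyte-like cells.

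Members past the threshold in FAP-like cells numbered 2 at 2-fold in place of 5. In pericyte-like cells the count of 2 became 1 at 2-fold, with own-marker classes, with a minimum of 200 UMIs or under the stricter filter, 4 with the blood-cell subtraction or without the 3 leading cells, and 5 with no minimum. In tenocyte-like cells the 3 called members stayed past the threshold under all 13 alternatives for single members. Depth limited Kera outside tendon and Omd in FAP-like cells, where counts were low.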

Other observations

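In lymphatic EC-like cells the Prelp level was 126 CPM (99.9 to 156) in 75 DMSO cells and 331 CPM (284 to 385) in 79 MVC cells, a ratio of 2.64 (2.01 to 3.48), and 3 cells held 42.4% of the MVC UMIs. In perineurial-like cells, with 79 DMSO and 69 MVC cells, Dcn had a ratio of 0.641 (0.619 to 0.663) and Lum of 0.696 (0.583 to 0.829), while Bgn had 1.56 (1.22 to 1.997) and Ogn 1.24 (1.05 to 1.45). Both classes were under the minimum of 100 cells per library.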
